A study of Homo sapiens with 6 samples.

Results

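The transcripts described here come from 38 genes of the glutathione, thioredoxin and NRF2 antioxidant systems, out of 61852 genes in the deposited table. They were taken as a fixed list of symbols covering enzymes and regulators, and all 38 were found. Poly(A)-selected RNA was sequenced from the established human line MEG-01, grown out of a megakaryoblastic leukaemia. The MELK knockdown group (n = 3) carried the short hairpin sh2-MELK, the single hairpin against the kinase MELK that the labels name, and the control group (n = 3) carried the pLKO.1 vector. All 6 libraries were labelled as the same batch, and the labels call the replicates biological without naming separate transductions, so the p-values below reflect how these libraries varied, which may be technical.

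Cells remove hydrogen peroxide and reactive electrophiles through a pair of thiol systems, one built on the tripeptide glutathione and the other on the protein thioredoxin, and both draw their electrons from NADPH. The transcription factor NRF2, encoded by NFE2L2, binds antioxidant response elements together with small MAF proteins and switches on many of these genes, while KEAP1 presents NRF2 for degradation and BACH1 competes for the same elements. Erythroid cells are known for high levels of peroxiredoxins, glutathione peroxidases and heme-degrading enzymes.

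The antioxidant response element has the core TGACNNNGC, and the genes in this list that carry it close to an annotated start are shown because NRF2 is the best known regulator of the group. RefSeq promoters (GRCh38.p14, 250 bases before to 50 after each start) were matched for 29 of the 38 genes, and 6 of the 29 (20.7%) held the core on either strand, against 4384 of 27305 genes of the whole RefSeq table (16.1%). No promoter was matched for MAFK, HMOX1, GSS, GSR, MGST2, TXN2, PRDX1, PRDX6 and SOD1. The match nearest to the start is printed for each gene on the gene's own strand, with the 9 matched bases in capitals and 10 bases on either side. Where the core lies on the other strand, the capitals read as its reverse complement. A match is only a run of letters in this window and says nothing about binding.
GSTP1: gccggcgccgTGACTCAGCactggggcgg
GSTO1: cgagatgcttTGACACAGCcccttaagat
GCLM: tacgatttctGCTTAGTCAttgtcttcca
KEAP1: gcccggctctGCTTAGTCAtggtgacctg
TXNRD1: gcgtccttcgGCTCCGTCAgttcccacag
MGST1: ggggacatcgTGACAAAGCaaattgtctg
The GSTP1 window lies at chr11:67583736-67583764 on the plus strand, with the core 66 bases before the start. The GSTO1 window lies at chr10:104254721-104254749 on the plus strand, with the core 161 bases before the start. The GCLM window lies at chr1:93909446-93909474 on the minus strand and the KEAP1 window at chr19:10502784-10502812 on the minus strand, with cores 34 and 31 bases before the starts. The TXNRD1 window lies at chr12:104215761-104215789 on the plus strand, with the core 8 bases before the start, and the MGST1 window at chr12:16347135-16347163 on the plus strand, with the core 30 bases after it. The 6 genes did not move together: TXNRD1 and MGST1 were higher in the knockdown, GSTP1, GSTO1 and KEAP1 were lower, and GCLM did not pass the test, with the calls of MGST1 and KEAP1 lost after the GC and length correction described below.

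Library totals ran from 18945176 to 20410845 counts in the knockdown and from 20208255 to 21711313 in the control. The counts as deposited seem to carry an extra 0, 1, 2, 10 or 100 on top of the reads, so the test was limited to genes averaging 500 counts or more over the 6 libraries, with edgeR's quasi-likelihood test and Benjamini-Hochberg adjustment over all 5038 of them at a threshold of 0.05. Levels are given as CPM, that is, counts scaled to a common library total after TMM normalization. MELK itself had 16, 124 and 26 counts in the knockdown libraries, against 219, 206 and 238 in the control libraries. All knockdown values lay below the control values, with the knockdown library of replicate 2 closest to them. At these low counts the edgeR fit of all genes passing the filterByExpr filter gave a log2 fold change of -1.98 ± 0.69 (SE) with an adjusted p of 0.104. A model of reads plus the added number estimated 20.6 reads per library in the knockdown and 214 in the control.

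The labelled lineage was checked against megakaryocyte markers. ITGA2B, the integrin that marks the lineage, averaged 1038 CPM in the knockdown and 1957 CPM in the control. GP1BB and PF4, both late markers, held only the 5 added numbers. The 12 megakaryocyte markers summed to between 1433 and 1479 CPM in knockdown libraries and between 2507 and 2630 CPM in control libraries. Most of these sums was ITGA2B. The 4 megakaryocyte markers that were tested fell. A list of 12 erythroid markers summed to between 314 and 326 CPM in knockdown libraries and between 559 and 610 CPM in control libraries, with 1 of 7 tested markers higher and 5 lower. Of 8 granulocyte and monocyte markers, 3 were tested, 1 higher and 2 lower, and the list summed to between 248 and 263 CPM in knockdown libraries and between 365 and 392.2 CPM in control libraries. Of 6 mast cell markers, 3 were tested, 1 higher and 2 lower, and the list summed to between 332 and 343 CPM in knockdown libraries and between 397 and 402 CPM in control libraries. Of these 3, TPSAB1 fell by 2.71 ± 0.11 and HDC by 0.54 ± 0.03 (log2, SE), and FCER1A rose by 1.16 ± 0.08. The stem and mast cell receptor KIT, below a mean of 500 counts, averaged 29.6 CPM in the knockdown and 3.81 CPM in the control (log2 fold change 2.93 ± 0.13, adjusted p = 1.88e-06 in the edgeR fit with filterByExpr) and was singled out after its values were seen. In that fit the mast cell marker CPA3 was also higher (0.90 ± 0.12), MS4A2 did not pass, and the megakaryocyte marker GP1BA was lower (-0.90 ± 0.13). The 6 lymphocyte markers summed to between 8.11 and 17.2 CPM in knockdown libraries and between 2.70 and 8.21 CPM in control libraries, and the 10 stromal and epithelial markers to between 96.9 and 109 CPM in knockdown libraries and between 80.7 and 84.2 CPM in control libraries. No marker of these lists was 0 in all 6 libraries. The added number would nearly always give this even without reads, so it does not show that each marker was expressed. Beside these counts of markers, 38.2% of all 5038 genes tested were higher in the knockdown and 38.8% lower. In these bulk samples fewer cells of a type and less RNA per cell cannot be told apart, and the part of these marker shifts in the results below was not tested.

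Of the 38 genes, 29 averaged 500 counts or more, and 14 rose and 11 fell in the knockdown, 25 of 29. Among all 5038 genes tested 76.9% changed, with 38.2% higher and 38.8% lower, so the share of changed antioxidant genes lay near that of all genes. The median log2 fold change of the 29 was 0.17, with values from -2.07 to 1.03, against a median of 0.00 over all genes tested, whose 10th and 90th percentiles were -0.74 and 0.71. The median size of the change without its sign was 0.38 for the 29 and 0.36 for all genes. Knockdown and control values did not overlap for 24 of the 29, against 79.2% of all genes. Against a null of a 1.5-fold change, 7 of the 29 passed, with PRDX1 and SOD1 higher and HMOX1, BLVRB, GSTP1, GSTK1 and TXNIP lower, beside 20.0% of all genes (9.63% higher and 10.4% lower). The summed level of the 38 genes was 5314 to 5400 CPM in knockdown libraries and 5124 to 5239 CPM in control libraries.

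**Figure D1:**
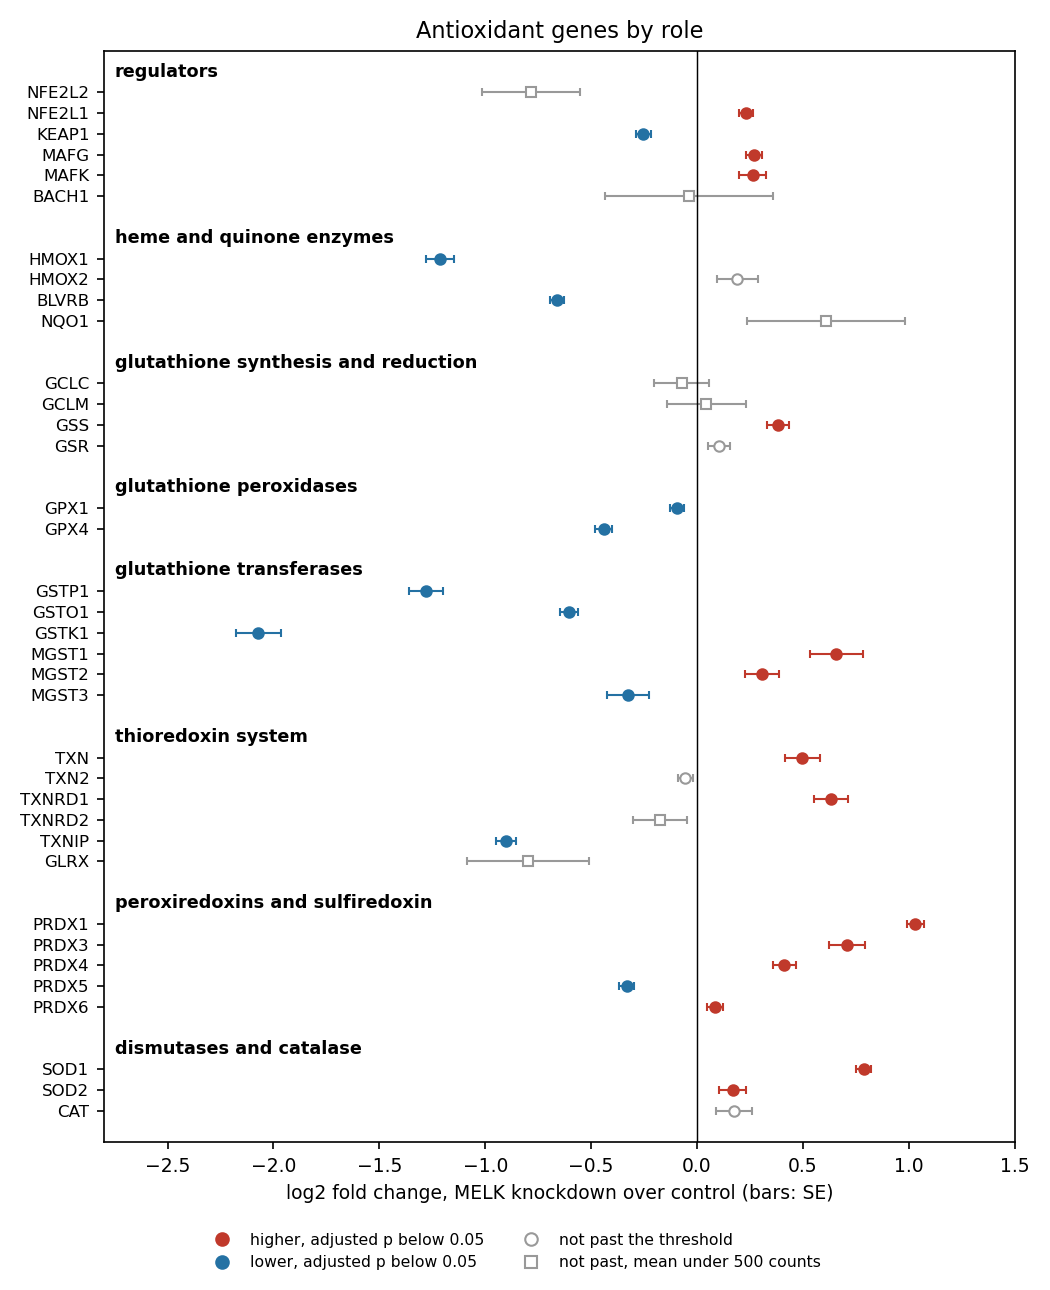
Log2 fold change of 36 antioxidant genes, MELK knockdown over control, grouped by role; bars are SE, filled circles are genes past an adjusted p of 0.05 and squares are genes with a mean under 500 counts. Points lie on both sides of 0 in most groups, with GSTK1 furthest to the left at -2.07 and PRDX1 furthest to the right at 1.03.

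Fold changes over all genes followed the GC content of the transcripts. Spearman's rho between GC content and log2 fold change was -0.39 across 5031 genes and -0.48 across the 29 antioxidant genes, which share the same libraries. Genes rich in GC tended to have lower values in the knockdown. A second fit took out of each library the part of its values that followed GC content and length, and its results are given where they ended a call or turned a direction. GC content and length were removed together, and the part of each alone was not tested.

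The regulators gave 3 rises and 1 fall among the 4 that could be tested at a mean of 500 counts or more, beside 38.2% higher and 38.8% lower among all genes, and the call of KEAP1 was lost after the GC and length correction. NFE2L1, the NRF2 relative that drives proteasome genes, had 293, 279 and 286 CPM in knockdown libraries, against 242, 244 and 246 CPM in control libraries. All knockdown values were above the control values, and NFE2L1 rose by 0.23 ± 0.03 (log2, SE; edgeR adjusted p = 1.05e-05). The small MAF partners also rose. MAFG averaged 187 ± 1.2 CPM in the knockdown and 155 ± 5.0 CPM in the control (SD, n = 3 each), a log2 fold change of 0.27 ± 0.04. MAFK averaged 65.5 CPM in the knockdown and 54.6 CPM in the control (log2 fold change 0.26 ± 0.06, adjusted p = 0.00166), with 18.1% of its exonic bases overlapped by TMEM184A on the other strand. KEAP1, the adaptor that hands NRF2 to a CUL3 ubiquitin ligase, had 274, 282 and 274 CPM in knockdown libraries, against 344, 323 and 323 CPM in control libraries. The groups lay apart and KEAP1 fell by 0.25 on the log2 scale (edgeR adjusted p = 7.47e-06), but the log2 fold change was -0.02 with an adjusted p of 0.456 once the GC and length trend was removed.

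NFE2L2, which encodes NRF2 itself, had few reads. Its counts were 123, 108 and 104 in knockdown libraries, against 198, 175 and 219 in control libraries, and no knockdown value reached the control values. The edgeR fit with filterByExpr gave a log2 fold change of -0.78 ± 0.23 that missed the threshold (adjusted p = 0.0534), while DESeq2 gave an adjusted p of 0.0142. The model of the added number estimated 111 reads in the knockdown and 191 in the control, a log2 difference of -0.79 with a 95% interval from -1.01 to -0.57 and an adjusted p of 0.00126. Of its exonic bases, 17.6% are shared in GENCODE 29 with AC019080.1 on the same strand. AC019080.1 held 124, 32 and 21 counts in knockdown libraries and 30, 39 and 36 in control libraries. How reads on shared bases were counted is not known, so they could be given to either gene or be lost to both. BACH1, the repressor, had 7.86, 12.1 and 6.71 CPM in knockdown libraries, against 14.6, 6.80 and 5.69 CPM in control libraries. These groups overlapped fully, and the log2 fold change of -0.04 ± 0.40 did not pass the test.

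Of the 3 heme enzymes tested, HMOX1 and BLVRB fell and HMOX2 did not pass the test, beside 38.8% of all genes lower. HMOX1, the inducible heme oxygenase (chromosome 22, 35380361 to 35394214, GRCh38), had 39.8, 35.8 and 35.3 CPM in knockdown libraries, against 86.5, 86.2 and 84.6 CPM in control libraries. Every control value was far above every knockdown value, and HMOX1 fell by 1.21 on the log2 scale (SE 0.06, edgeR adjusted p = 1.40e-10). BLVRB, which reduces biliverdin and flavins and is abundant in red cells, had 185, 182 and 186 CPM in knockdown libraries, against 293, 290.3 and 291 CPM in control libraries. Its groups lay far apart relative to their spread, with a log2 fold change of -0.66 ± 0.03 (edgeR adjusted p = 4.96e-11), which was -0.32 without the GC and length trend. BLVRA, the other biliverdin reductase, which was named after its values were seen, rose by 0.16 ± 0.05 (adjusted p = 0.00855). Of the erythroid markers given above, 5 of the 7 tested fell, and any link to HMOX1 or BLVRB was not tested. HMOX2, the constitutive heme oxygenase, averaged 29.8 CPM in the knockdown and 26.1 CPM in the control, a log2 fold change of 0.19 ± 0.10 that did not pass the test (adjusted p = 0.0880), though it did without the GC and length trend (0.31, adjusted p = 0.00842).

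NQO1, the quinone reductase that is a standard NRF2 readout, was lowly expressed. Its counts were 155, 175 and 230 in knockdown libraries, against 87, 189 and 98 in control libraries, so that the control library of replicate 2 lay within the knockdown range. The edgeR fit gave a log2 fold change of 0.61 ± 0.37 (adjusted p = 0.386). The model, which reads part of that control value as an added 100, estimated 154 reads in the knockdown and 87.8 in the control, a log2 difference of 0.81 with a 95% interval from 0.57 to 1.05 (adjusted p = 2.43e-08). NQO1 thus lay on the other side of 0 from NFE2L2 in both analyses.

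Glutathione is made in 2 steps, by glutamate-cysteine ligase and then by glutathione synthetase. The catalytic subunit GCLC averaged 18.8 CPM in the knockdown and 19.5 CPM in the control, and the modifier subunit GCLM averaged 13.8 CPM in the knockdown and 13.2 CPM in the control. Neither passed the test with edgeR (log2 fold changes of -0.07 ± 0.13 and 0.04 ± 0.19), and the intervals of the model ran from -0.33 to -0.03 for GCLC (adjusted p = 0.0509) and from -0.29 to 0.06 for GCLM. GSS, the synthetase, had 129, 120.3 and 118 CPM in knockdown libraries, against 97.3, 88.2 and 96.2 CPM in control libraries. All 3 knockdown values stood above the control values, and GSS rose by 0.38 ± 0.05 (log2, SE; edgeR adjusted p = 7.36e-06). GSR, which recycles oxidized glutathione with NADPH, averaged 121 CPM in the knockdown and 113 CPM in the control with overlapping groups (log2 fold change 0.10 ± 0.05, adjusted p = 0.0833).

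**Figure D2:**
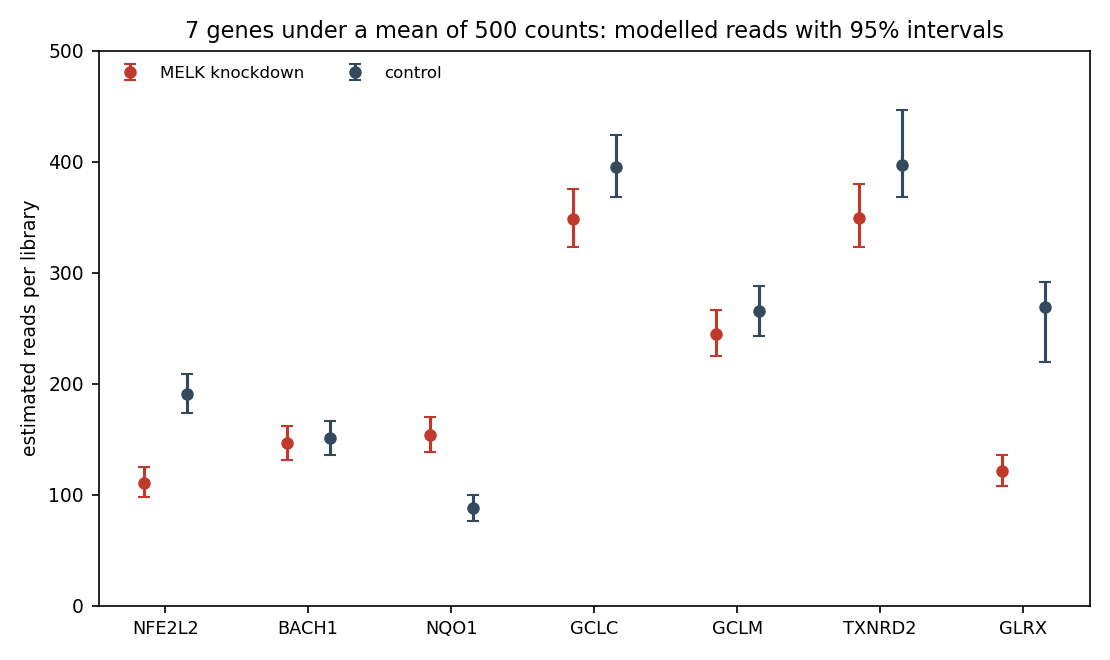
Estimated reads per library of 7 antioxidant genes with a mean under 500 counts, from the model of reads plus the added number, with 95% profile intervals on a linear axis. The intervals of knockdown and control are separate for NFE2L2, NQO1 and GLRX and overlap for BACH1, GCLC, GCLM and TXNRD2.

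Both glutathione peroxidases were lower in the knockdown as fitted, GPX1 turning higher when the GC and length trend was removed. GPX4, the selenoprotein that reduces lipid hydroperoxides in membranes, had 261, 272 and 282 CPM in knockdown libraries, against 388, 361 and 357 CPM in control libraries. The groups did not overlap and GPX4 fell by 0.44 on the log2 scale (SE 0.04, edgeR adjusted p = 6.13e-08), of which 0.08 was left without the GC and length trend (log2 fold change -0.08, adjusted p = 0.0123). GPX1, the abundant cytosolic peroxidase, averaged 519.7 ± 6.4 CPM in the knockdown and 556 ± 20.0 CPM in the control (SD, n = 3 each). Its log2 fold change of -0.10 ± 0.03 (adjusted p = 0.0143) missed the threshold in 4 of the other fits, and turned to 0.24 (adjusted p = 2.64e-07) without the GC and length trend. A processed copy, GPX1P1, held 471, 494 and 1287 counts in knockdown libraries and 1366, 902 and 380 in control libraries, with wide and overlapping groups.

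Of the 6 glutathione transferases, which join glutathione to electrophiles, 2 rose and 4 fell. Among all genes tested, 38.2% were higher and 38.8% lower. The soluble enzymes GSTP1, GSTO1 and GSTK1 summed to 135 ± 3.4 CPM in the knockdown and 262 ± 6.1 CPM in the control, and each fell. GSTK1, the mitochondrial and peroxisomal kappa enzyme (chromosome 7, 143244093 to 143270854), had 12.8, 11.6 and 11.9 CPM in knockdown libraries, against 56.3, 46.5 and 49.6 CPM in control libraries. Every control value was well above every knockdown value, and its log2 fold change of -2.07 ± 0.11 (edgeR adjusted p = 9.15e-11) was the lowest of the 29 genes. Its mean of 649 counts lies just above the minimum of 500, as do HMOX2 at 568.5 and MGST1 at 637, while TXNRD2 at 408.5 and GCLC at 391 lie just below it. GSTK1 had 255, 242 and 228 counts in knockdown libraries, so it reached that minimum only through the control libraries. The model of the added number gave it a log2 difference of -2.05 with a 95% interval from -2.20 to -1.90. GSTP1, the pi enzyme, had 30.7, 26.2 and 24.9 CPM in knockdown libraries, against 67.2, 66.0 and 65.8 CPM in control libraries. The control libraries agreed closely and GSTP1 fell by 1.28 on the log2 scale (SE 0.08, adjusted p = 1.17e-09). GSTO1, the omega enzyme that reduces dehydroascorbate, had 95, 95 and 95.6 CPM in knockdown libraries, against 141, 142 and 150.4 CPM in control libraries, a log2 fold change of -0.60 ± 0.04.

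The microsomal transferases are membrane proteins of an unrelated fold, and they summed to 114 ± 11.3 CPM in the knockdown and 98.7 ± 5.2 CPM in the control. These sums overlapped, with 101 CPM in replicate 1 of the knockdown and 104 CPM in replicate 2 of the control. MGST1 had 30.3, 42.3 and 42.7 CPM in knockdown libraries, against 22.3, 25.0 and 25.8 CPM in control libraries. The groups lay apart, with replicate 1 of the knockdown nearest to the control, and the log2 fold change of 0.66 ± 0.13 (adjusted p = 2.45e-04) became 0.05 (adjusted p = 0.668) without the GC and length trend. MGST2, which can make leukotriene C4, averaged 44.7 CPM in the knockdown and 36.2 CPM in the control (log2 fold change 0.31 ± 0.08, adjusted p = 0.00278). Without the GC and length trend its edgeR log2 fold change was 0.17 (adjusted p = 0.0477), and with no filter it missed the threshold. MGST3 had the other direction, with 27.1, 29.8 and 34.4 CPM in knockdown libraries, against 37.3, 40.0 and 37.1 CPM in control libraries (log2 fold change -0.33 ± 0.10, adjusted p = 0.00761). It also missed the threshold with no filter. As a share of the summed level of all 6 transferases, GSTK1 held 4.88% in the knockdown and 14.1% in the control, and GSTP1 11.03% in the knockdown and 18.4% in the control. MGST2 went the other way, at 18.0% in the knockdown and 10.04% in the control.

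In the thioredoxin system the cytosolic pair rose and its inhibitor fell. TXN, the thioredoxin that reduces disulfides in the cytosol, had 119, 131 and 132 CPM in knockdown libraries, against 78.0, 91.2 and 102 CPM in control libraries. The highest control value stayed below the lowest knockdown value, and TXN rose by 0.50 ± 0.08 (log2, SE; edgeR adjusted p = 1.27e-04). TXNRD1, the selenoprotein that reduces TXN with NADPH, had 55.2, 54.0 and 58.9 CPM in knockdown libraries, against 33.1, 39.7 and 35.5 CPM in control libraries. It rose by 0.63 ± 0.08 (adjusted p = 3.02e-06), and TXN and TXNRD1 kept their calls at log2 fold changes of 0.22 and 0.37 without the GC and length trend. TXNIP, the arrestin-like protein that binds and inhibits thioredoxin and restrains glucose uptake, had 258, 273 and 273 CPM in knockdown libraries, against 463, 528 and 511 CPM in control libraries. TXNIP fell by 0.90 on the log2 scale (SE 0.05, adjusted p = 2.01e-10), and by 1.21 without the GC and length trend.

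The mitochondrial pair did not pass the test. TXN2 averaged 214 CPM in the knockdown and 223 CPM in the control, with overlapping groups (log2 fold change -0.06 ± 0.04, adjusted p = 0.169), and TXNRD2 averaged 18.96 CPM in the knockdown and 21.2 CPM in the control (-0.18 ± 0.13, adjusted p = 0.471). GLRX, the glutathione-dependent glutaredoxin, had 7.06, 5.05 and 11.3 CPM in knockdown libraries, against 15.1, 13.5 and 11.6 CPM in control libraries. The groups were separated narrowly, by replicate 3 of the knockdown, with a log2 fold change of -0.80 ± 0.29 (edgeR adjusted p = 0.120). Without that library it was -1.16 (adjusted p = 0.0192), and the model gave -1.15 with a 95% interval from -1.36 to -0.80. For these 7 genes under a mean of 500 counts, none passed the edgeR test with filterByExpr, where 5.41% of all genes under that mean did, and 25.4% of those with a mean of 100 to 500 counts. The model called NFE2L2, NQO1 and GLRX, beside 69.2% of all genes in that range and 39.2% of all genes it tested.

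**Figure D3:**
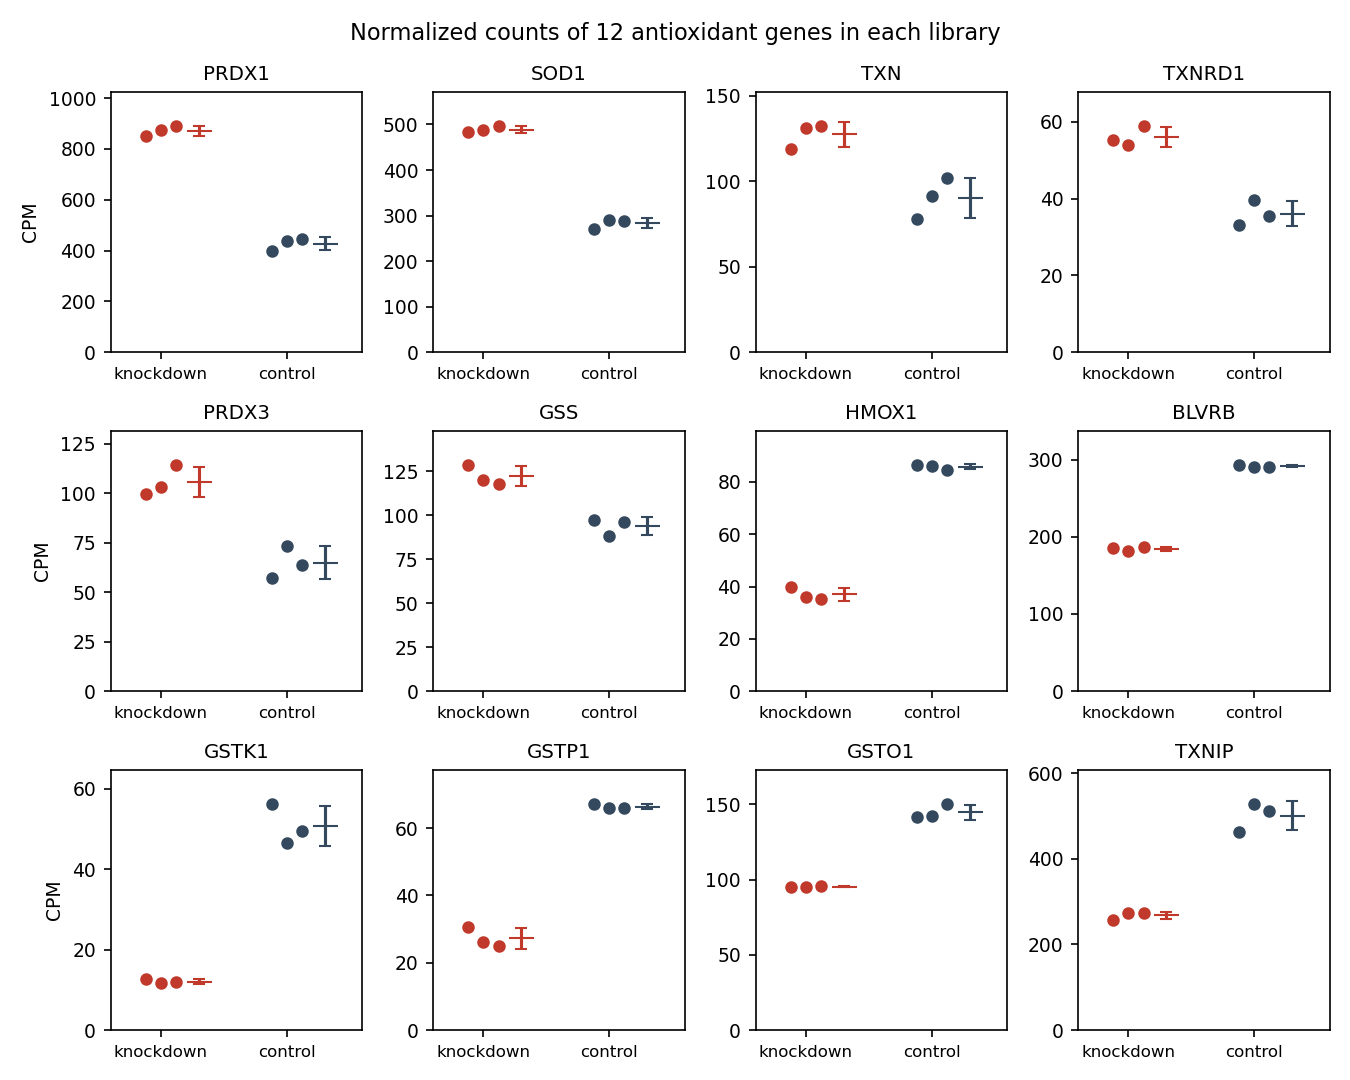
CPM of 12 antioxidant genes in each library (points) with the group mean and SD (bars), MELK knockdown left of control, each panel on a linear axis from 0. In each of the 12 panels the points of the groups do not overlap, with PRDX1, SOD1, TXN, TXNRD1, PRDX3 and GSS higher in the knockdown and the other 6 genes lower.

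The peroxiredoxins, which destroy peroxide through a reactive cysteine and are recycled mostly by thioredoxin, held the highest rise of the 29 genes. PRDX1, the main cytosolic member (chromosome 1, 45511036 to 45523047), had 851, 874 and 891 CPM in knockdown libraries, against 397, 438 and 445 CPM in control libraries. The lowest knockdown value was far above the highest control value, with a log2 fold change of 1.03 ± 0.04 (edgeR adjusted p = 6.23e-12). Of its exonic bases, 24.9% are overlapped by MMACHC on the other strand. MMACHC held 505, 463 and 458 counts in knockdown libraries and 618, 711 and 844 in control libraries, against a mean of 13141 counts for PRDX1, and the part of this overlap in the PRDX1 values was not tested. PRDX3, the mitochondrial member, had 99.7, 103 and 114 CPM in knockdown libraries, against 56.9, 73.5 and 63.7 CPM in control libraries, and rose by 0.71 ± 0.08 (adjusted p = 5.66e-06), or by 0.31 without the GC and length trend (adjusted p = 1.97e-04). PRDX4, which works in the endoplasmic reticulum, averaged 99.1 CPM in the knockdown and 74.4 CPM in the control, and rose by 0.41 ± 0.05 (adjusted p = 2.99e-06).

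The remaining peroxiredoxins moved less or the other way. PRDX5 had 239, 242 and 226 CPM in knockdown libraries, against 301, 289 and 299 CPM in control libraries, and fell by 0.33 on the log2 scale (SE 0.04, adjusted p = 4.97e-07). The log2 fold change was -0.01 (adjusted p = 0.702) without the GC and length trend. PRDX6, the one-cysteine member that uses glutathione, averaged 315 CPM in the knockdown and 297 CPM in the control with overlapping groups, and its log2 fold change of 0.09 ± 0.04 (adjusted p = 0.0480) missed the threshold in 11 of 18 other fits and became -0.18 (adjusted p = 1.50e-04) without the GC and length trend. PRDX2, the abundant red-cell peroxiredoxin, had 105, 2 and 3 counts in knockdown libraries and 0, 1 and 3 in control libraries. SRXN1, the sulfiredoxin that repairs overoxidized peroxiredoxins, had 0, 2 and 0 counts in knockdown libraries and 1, 0 and 100 in control libraries. These values are close to what the added number alone gives, and neither gene was tested. Of the exonic bases of SRXN1, 85.0% are shared with AL121758.1 on the same strand, which also held few counts. How reads on shared bases were counted is not known, so these counts cannot show whether SRXN1 was expressed. PRDX2 has 4 named pseudogenes among the genes counted, and 14.1% of its exonic bases are overlapped by AC018761.2 on the other strand. The part of these in its low counts was not tested, so the counts do not show that PRDX2 was absent.

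Together the peroxiredoxins summed to 1629 ± 10.6 CPM in the knockdown and 1159 ± 42.9 CPM in the control (SD, n = 3 each), to which PRDX2 added at most 0.325%. PRDX1 supplied 53.5% ± 0.9 of the sum in the knockdown and 36.8% ± 1.0 in the control, while PRDX5 supplied 14.5% ± 0.6 in the knockdown and 25.6% ± 1.3 in the control. Levels were also divided by exon length, with the exons of all annotated transcripts of a gene merged. PRDX1 stood at 573 CPM per kb in the knockdown and 280 CPM per kb in the control. On that scale the order was PRDX1, GPX1, PRDX5 and SOD1 in the knockdown, at 573, 363, 264 and 242. In the control it was GPX1, PRDX5, PRDX1 and GPX4, at 389, 332, 280 and 183. This order depends on the length used, and none by transcript length was made. The longest transcript has 966 bases for SOD1, 1002 for GPX4 and 893 for PRDX5. The merged exons have 2019, 2019 and 893 bases.

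**Figure D4:**
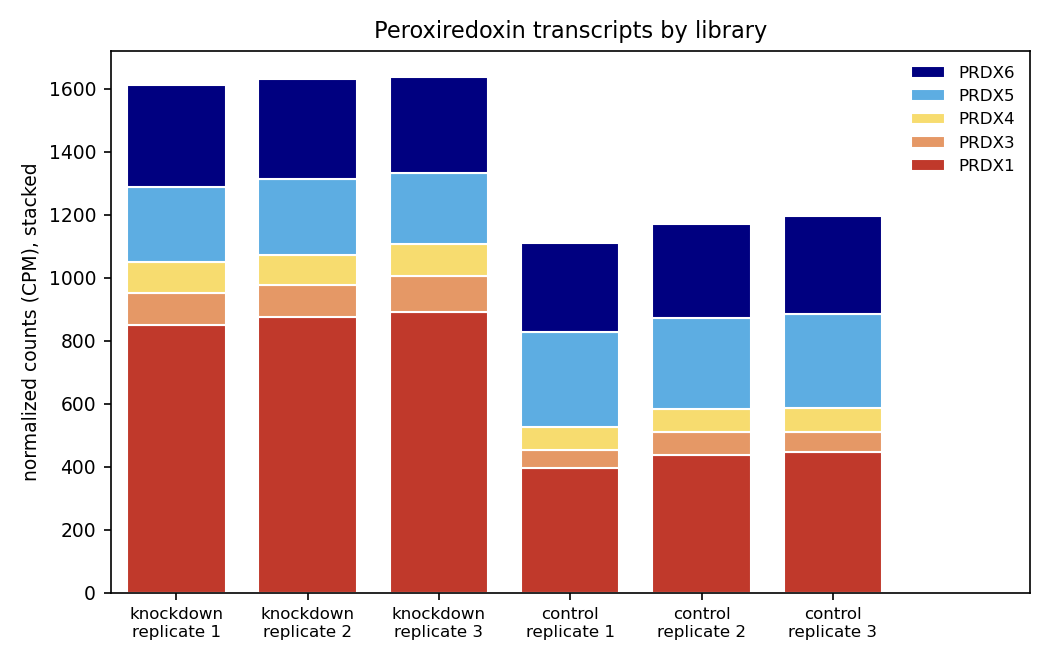
Stacked CPM of PRDX1, PRDX3, PRDX4, PRDX5 and PRDX6 in each library, knockdown libraries left of control libraries, on a linear axis from 0. Each knockdown stack is taller than each control stack, and the PRDX1 segment averages 872 CPM in the knockdown and 427 CPM in the control.

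Of the superoxide dismutases, SOD1 changed most. SOD1, the cytosolic copper-zinc enzyme (chromosome 21, 31659622 to 31668931), had 483, 487 and 497 CPM in knockdown libraries, against 271, 290.2 and 289 CPM in control libraries. All knockdown libraries exceeded all control libraries and SOD1 rose by 0.79 ± 0.03 (log2, SE; edgeR adjusted p = 1.35e-11), or 0.58 without the GC and length trend. SOD2, the mitochondrial manganese enzyme, had 95.2, 86.8 and 84.3 CPM in knockdown libraries, against 73.8, 78.0 and 85.1 CPM in control libraries. The highest control value lay above the lowest knockdown value, and the log2 fold change of 0.17 ± 0.06 (adjusted p = 0.0244) was lost in 5 of 18 other fits and was -0.03 (adjusted p = 0.666) without the GC and length trend. Catalase, CAT, averaged 53.3 CPM in the knockdown and 47.2 CPM in the control, with overlapping groups and a log2 fold change of 0.17 ± 0.08 that did not pass the test (adjusted p = 0.0691).

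Of the 25 changed genes, 17 (68.0%) kept their direction and their side of the threshold in every alternative that tested them except the test against 1.5-fold, beside 71.9% of the 3876 changed genes of the whole table. GSTP1, GSTK1 and TXNRD1, which are among the 17, were not tested at a mean of 1000 counts or more. The 10 higher ones were PRDX1, SOD1, PRDX3, PRDX4, TXN, TXNRD1, GSS, NFE2L1, MAFG and MAFK, and the 7 lower ones were HMOX1, BLVRB, GSTK1, GSTP1, GSTO1, GPX4 and TXNIP. With the GC and length correction 22 of the 29 passed, beside 76.6% of all genes. The correction ended the calls of KEAP1, MGST1, PRDX5 and SOD2 and turned the direction of 6 genes, GSR, GPX1, TXN2, PRDX6, SOD2 and CAT.

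**Figure D5:**
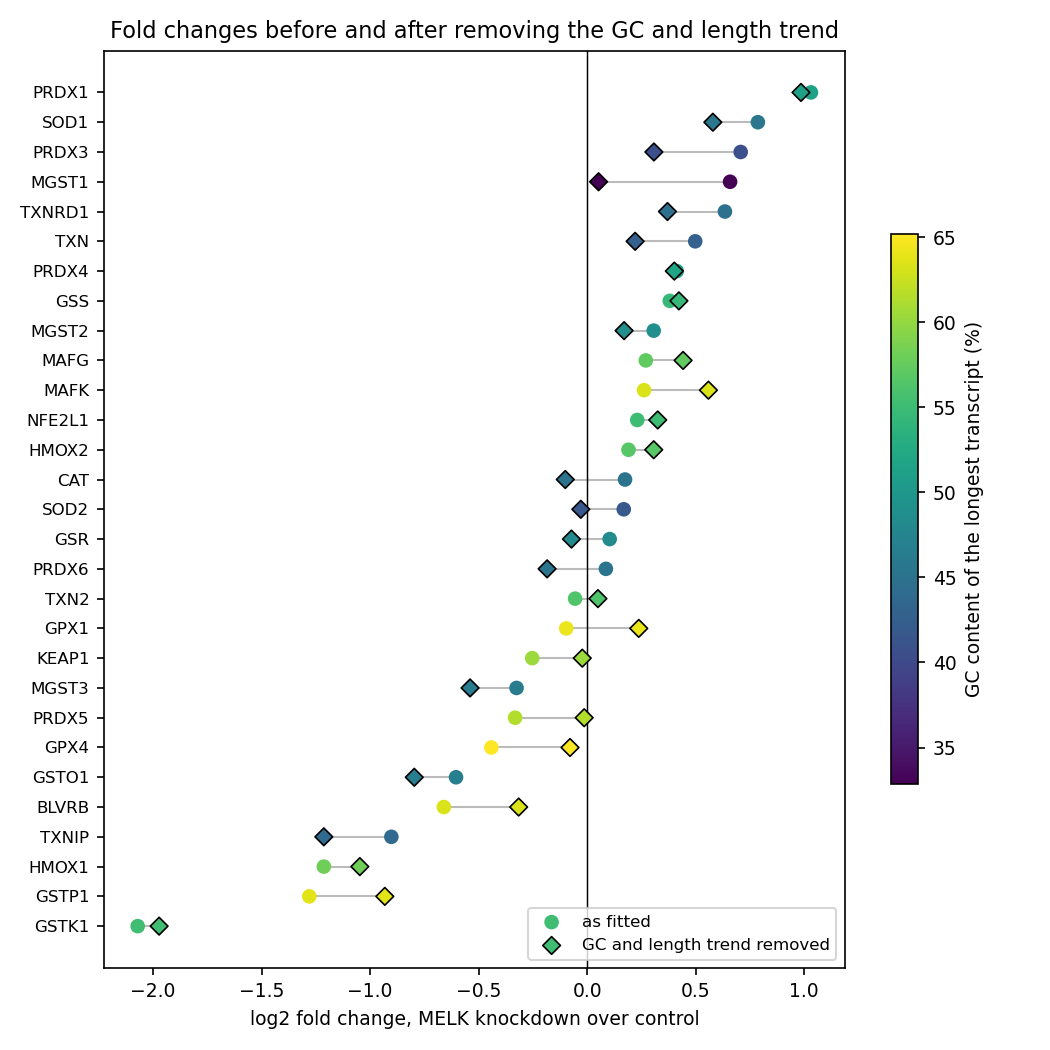
Log2 fold change of the 29 antioxidant genes, MELK knockdown over control, as fitted (circles) and after the GC and length correction (diamonds); colour is the GC content of the longest transcript. GSTK1, PRDX1 and HMOX1 stay far from 0 in both, while KEAP1, PRDX5 and MGST1 move to within 0.06 of it and GPX1 crosses to 0.24.

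Other genes of the pathway were counted from lists of regulators, suppliers of reducing power and targets. Of 14 further regulators of NRF2, 7 were tested, with 6 higher and 1 lower and a median log2 fold change of 0.48, where 76.9% of all genes tested changed (38.2% higher and 38.8% lower). CDKN1A, the cell cycle inhibitor p21 that can shield NRF2 from KEAP1, averaged 274 ± 13.4 CPM in the knockdown and 77.4 ± 2.9 CPM in the control (log2 fold change 1.82 ± 0.05, edgeR adjusted p = 3.54e-14). RBX1, the RING subunit of the CUL3 ligase, rose by 0.77 ± 0.07, and the small MAF protein MAFF rose by 0.64 ± 0.05. The regulator that fell was NFE2, the blood-lineage relative of NRF2, which is also one of the megakaryocyte markers.

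Genes that supply NADPH and serine-derived carbon gave 3 rises and 8 falls among 12 tested, with a median log2 fold change of -0.41, against 38.2% higher and 38.8% lower among all genes. PHGDH, the first enzyme of serine synthesis, averaged 76.5 ± 3.0 CPM in the knockdown and 235 ± 2.5 CPM in the control (log2 fold change -1.62 ± 0.04, edgeR adjusted p = 4.96e-14). SHMT2, the mitochondrial serine hydroxymethyltransferase, fell by 1.20 on the log2 scale. ME1, the cytosolic malic enzyme that makes NADPH, went against these, with 46.6 ± 1.5 CPM in the knockdown and 15.3 ± 0.6 CPM in the control (log2 fold change 1.61 ± 0.10). The control counts of ME1 were 310, 314 and 325, so it reached a mean of 500 only through the knockdown libraries.

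Among 26 other listed NRF2 targets, 12 were tested, and 3 rose and 6 fell, with a median log2 fold change of -0.19, a share of changed genes near the 76.9% of all genes. The drug and glutathione-conjugate exporters ABCC4 and ABCC1 fell by 0.93 and 0.58 on the log2 scale, and the carbonyl reductase CBR1 fell by 0.73. Of 33 other glutathione genes in the table, 11 were tested, with 5 higher, 5 lower and a median of -0.01, beside the same 76.9%. GSTM3, a mu-class transferase, averaged 76.1 ± 3.9 CPM in the knockdown and 159 ± 7.4 CPM in the control (log2 fold change -1.07 ± 0.05), and GLRX5, the mitochondrial glutaredoxin of iron-sulfur cluster assembly, fell by 0.87. LAP3, an aminopeptidase that can split cysteinyl-glycine, rose by 1.01 ± 0.11.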

How the data were processed

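The authors deposited 1 table of raw counts per gene for the 6 libraries. The submitters' processing notes name STAR, HTSeq, fastp, FastQC, R 4.3.3, DESeq2 and the build GRCh38, without roles. Strand setting and annotation release were not stated there, so genes with shared bases are uncertain. In 35797 genes (57.9%) all 6 values were 0, 1, 2, 10 or 100 in near-equal shares, so a number appears to have been added to each read count, with a SD of 38.9. The 5038 genes averaging 500 counts or more held 87.7% to 88.9% of each library.

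Symbols were assigned to 61848 gene IDs, 91 of them, SOD2 among these, from GENCODE 29, which also gave coordinates, exon overlaps, GC content and lengths on GRCh38. The test was that of edgeR 4.0.16 in R 4.3.3 (TMM, robust quasi-likelihood test, group only). Genes under the minimum were fitted with filterByExpr at a minimum count of 10 and with a negative binomial read count plus 1 of the 5 numbers, equally likely, tested by likelihood ratio, with a common dispersion from genes averaging 2000 counts or more. The GC and length correction used natural splines with 4 degrees of freedom per library. Further settings tried were scaling by upper quartile, relative log expression or library size, a mean of at least 1000 counts, no filter, DESeq2 1.42.0, limma-voom (limma 3.58.1), non-robust dispersion, a null of 1.5-fold, the replicate number as a block and each library left out. The scripts were tested on simulated data. All 38 genes were described, with at most 3 of each further list by size of change. The members and lists were chosen with earlier results of these data known. Intervals cover counting error and a common dispersion only.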

Additional observations from a re-analysis of the deposited data

How the results depend on the processing

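The 5038 genes tested gave 3876 calls, and the 29 antioxidant genes 25. Other scalings, filters and tools gave 2658 to 4683 calls, of which 19 to 27 were antioxidant genes, with 19 of 22 at a mean of at least 1000 counts. Against a 1.5-fold change there were 1007 calls and 7 antioxidant genes, and the model of the added number, which tested 26055 genes, gave 10221. With each library left out in turn, counts ran from 3677 to 3817 genes and from 22 to 25 antioxidant genes. Library size alone gave 2145 higher and 1760 lower genes, against 1922 and 1954, with a median of all genes of 0.05. MELK passed the threshold with no filter (-1.98, adjusted p = 0.00961), limma-voom (-2.48, adjusted p = 0.0487) and the model (-3.38, adjusted p = 1.59e-37), and ran from -3.32 (without replicate 2 of the knockdown, adjusted p = 0.00271) to -1.54 with a library left out.

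The GC and length correction turned GSR to -0.072, GPX1 to 0.24, TXN2 to 0.050, PRDX6 to -0.18, SOD2 to -0.029 and CAT to -0.10. BACH1, which was never called, turned to 0.029 with library size, 0.046 with limma-voom and 0.042 with the block, and ran from -0.33 to 0.50 with a library left out. GCLM turned to -0.12 in the model and ran from -0.15 to 0.19 with a library left out. The cause was not tested. Replicate numbers did not pair the libraries, with correlations of 0.0998, -0.0124 and -0.0801 between same-numbered deviations. The fit with the replicate block gave 3923 genes and 26 antioxidant genes, CAT being added. Genes under a mean of 500 counts are limited by the added number rather than by depth alone.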

Other observations

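Selenoproteins include several antioxidant enzymes above, such as GPX1, GPX4 and TXNRD1, and 11 of 17 further genes for selenoproteins and their synthesis were tested, with 5 higher, 4 lower and a median log2 fold change of 0.18, a share of changed genes near the 76.9% of all genes tested. SELENOT, a thioredoxin-like protein of the endoplasmic reticulum, had 108, 109 and 115 CPM in knockdown libraries, against 41.5, 43.3 and 35.4 CPM in control libraries (log2 fold change 1.47 ± 0.07, edgeR adjusted p = 3.77e-11). SELENOK, another protein of that membrane, averaged 59.0 ± 4.3 CPM in the knockdown and 25.0 ± 0.8 CPM in the control (1.24 ± 0.08). SEPHS1, a selenophosphate synthetase homologue, fell by 0.73 on the log2 scale.

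Of 24 other thioredoxin-fold, TXNIP-related and methionine sulfoxide genes, 11 were tested, with 6 higher, 3 lower and a median log2 fold change of 0.31, again beside 76.9% of all genes. ARRDC4, the arrestin closest to TXNIP, had 51.8, 50.6 and 53.1 CPM in knockdown libraries, against 14.0, 10.3 and 10.1 CPM in control libraries. It rose by 2.17 ± 0.12 (edgeR adjusted p = 2.20e-10) where TXNIP fell by 0.90, and both are known as glucose-responsive genes. SESN2, a stress-induced sestrin, fell by 1.02 on the log2 scale, and TXNL4A, a spliceosome protein of thioredoxin fold, rose by 0.49 ± 0.04.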
